A study of Mus musculus with 6 samples.

Results

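The genes described here are 37 genes of mitochondrial and peroxisomal beta-oxidation and of ketone body synthesis. They were listed by name, with earlier results of these data known. Of the 37 genes, 35 were among the 20894 genes of the count table, and the levels of Acads and Echs1 were not analysed here. They were split into 15 mitochondrial genes, 15 peroxisomal genes and 5 whose products work in several or other compartments (Crat, Eci2, Acad11, Mlycd and Vnn1). Fatty acid oxidation and ketone body synthesis form the pathway by which liver turns fatty acids into energy and into fuel for other organs. In mitochondria, the carnitine shuttle imports long-chain acyl groups, a repeated cycle of dehydrogenation, hydration, dehydrogenation and thiolysis shortens them, and during fasting acetyl-CoA is passed on to ketone bodies. Peroxisomes shorten very long and branched chains by a parallel cycle whose first step makes hydrogen peroxide, and many genes of both cycles are known targets of the nuclear receptor PPARalpha in rodent liver.

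Livers were taken from Irf3LSL-2D mice, which carry a Cre-dependent allele of Irf3-2D, a form of the antiviral transcription factor IRF3 that is active without a stimulus. The IRF3-2D group had been injected with AAV8-TBG-Cre and the Ctrl group with AAV8-TBG-GFP, adeno-associated viral vectors whose TBG promoter is active in hepatocytes. Both groups received 3 g/kg of ethanol by the intraperitoneal route and were killed 2 h later, so ethanol is common to all 6 samples, 3 in each group. Neither age nor sex is stated. Since both groups carry the allele and no mice without it received Cre, active IRF3, Cre and the absence of GFP cannot be told apart as sources of any difference.

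Depth was 12054096 to 13606973 estimated counts per library in IRF3-2D and 13940893 to 14830629 in Ctrl. Irf3 itself averaged 120 ± 15.3 CPM (counts scaled to a common library size with TMM) in IRF3-2D and 49.8 ± 9.35 in Ctrl (SD, n = 3 each), with every IRF3-2D library above every Ctrl library, and reads of the allele and of the native gene are not separated. Among the hepatocyte markers listed, 8 of 10 had a row; 6 of the 8 tested were called lower and 1 higher, and their summed level was 67630 to 79810 CPM in IRF3-2D and 142400 to 190700 in Ctrl, most of it Alb. Of 9 tested macrophage markers 3 were higher, with sums of 468 to 667 CPM in IRF3-2D and 406 to 438 in Ctrl. Of 9 endothelial markers 4 were lower (sums 335 to 453 CPM in IRF3-2D and 509.6 to 534 in Ctrl), and of 8 stellate markers 1 was lower (217 to 279.6 CPM in IRF3-2D and 254 to 315 in Ctrl), with Pdgfrb at 0 in all libraries. Adipocyte markers (3.73 to 5.37 CPM in IRF3-2D, 6.94 to 13.5 in Ctrl; 2 of 4 tested lower) and muscle markers (2.36 to 8.06 CPM in IRF3-2D and 2.78 to 4.92 in Ctrl; 0 of 1 tested called by edgeR, and 0 at an unadjusted p under 0.05) were near 0. Beside these counts, 13.1% of all tested genes were called lower and 13.2% higher, so the stellate count is near the background. The part of these cell types in the results below was not tested, and in whole liver fewer cells of a type and less RNA per cell cannot be told apart.

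To set a called step of the peroxisomal cycle beside one that was not called, the 250 bases before the annotated start of Acaa1b, which was far lower in IRF3-2D liver, are shown with those of Ehhadh. Etfa is shown as the only called gene whose window held a direct repeat of the kind that PPARalpha binds. All are RefSeq sequences on GRCm38.p6, 5′ to 3′ on the strand of the gene, with CCAAT on either strand and the repeat in capitals. The windows lie on the minus strand at chr9:119157094-119157343, chr16:21787835-21788084 and chr9:55512244-55512493.
Acaa1b: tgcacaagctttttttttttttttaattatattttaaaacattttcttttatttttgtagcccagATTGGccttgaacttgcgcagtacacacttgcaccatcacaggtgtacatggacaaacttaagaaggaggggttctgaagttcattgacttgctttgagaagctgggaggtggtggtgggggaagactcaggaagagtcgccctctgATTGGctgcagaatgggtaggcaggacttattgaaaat
Ehhadh: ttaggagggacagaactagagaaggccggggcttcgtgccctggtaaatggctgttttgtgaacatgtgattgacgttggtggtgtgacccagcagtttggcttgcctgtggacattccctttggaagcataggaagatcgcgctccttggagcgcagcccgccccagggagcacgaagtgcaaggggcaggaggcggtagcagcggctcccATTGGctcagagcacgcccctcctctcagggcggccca
Etfa: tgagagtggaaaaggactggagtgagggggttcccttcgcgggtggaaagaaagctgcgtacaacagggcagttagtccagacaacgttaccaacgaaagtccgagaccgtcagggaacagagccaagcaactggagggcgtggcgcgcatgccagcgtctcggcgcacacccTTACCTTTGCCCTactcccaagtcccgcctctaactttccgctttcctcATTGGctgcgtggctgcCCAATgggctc
The repeat was searched on both strands as AGGTCA, any 1 base and AGGTCA again, with up to 2 mismatches in all. It was found in the window of 2 of the 32 listed genes that have one (Echs1 and Etfa), and in 3.24% of all 32851 windows. GAAA, any 2 bases and GAAA again, a spacing that interferon regulatory factors bind, was found without mismatches in 0 of the 32 and in 2.98% of all windows. CCAAT occurred in 15 of the 32, among them 7 of 15 genes called lower and 7 of 12 not called, and in 33.8% of all windows. These are matches of letters in a short window, and a site further away would not be seen. Of the 35 windows of the listed genes, 25 had the first 30 bases after the start in a GENCODE M21 transcript of the gene. A window therefore need not lie at the start of the transcripts counted.

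Of the 35 genes, 31 had enough counts to be tested, and 16 of these were called lower in IRF3-2D liver and none higher (edgeR's quasi-likelihood test, Benjamini-Hochberg adjusted p under 0.05 over all 10802 genes tested). Over all tested genes, 13.1% were called lower and 13.2% higher. Among genes with a mean count of at least 50, where the test has more to work with, 17.3% were called lower. The median log2 fold change (IRF3-2D over Ctrl) of the 31 was -0.52, against 0.03 over all tested genes, and 8 fell at least 2-fold, where 4.84% of all genes did. In 19 of the 31 all IRF3-2D libraries lay below all Ctrl libraries, a separation that 21.2% of all tested genes showed, and in none did they lie above. The remaining 15 of the 31 were not called, and 11 of these had log2 fold changes between -0.35 and 0.

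**Figure D1:**
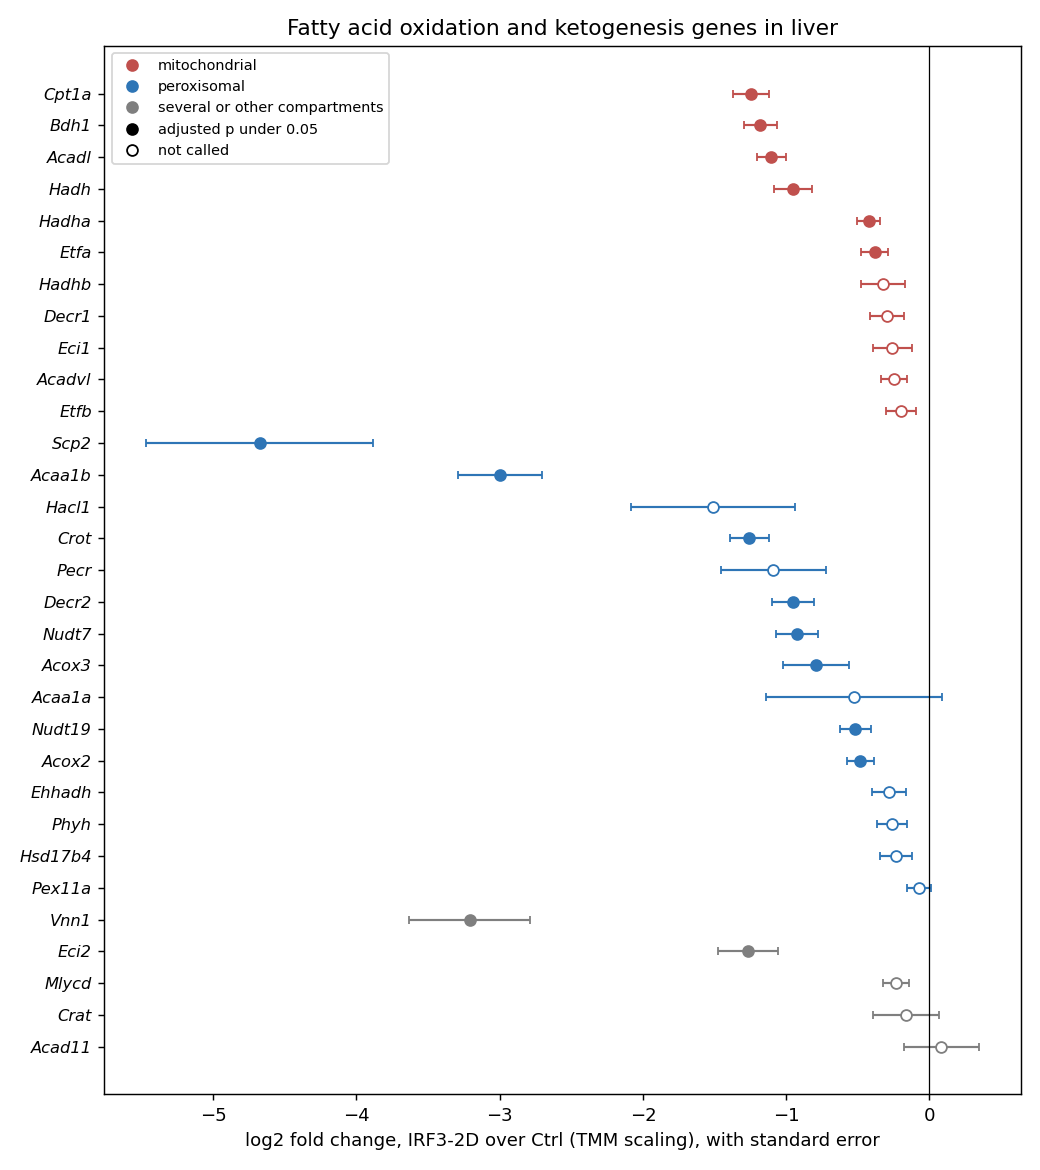
Log2 fold change of each tested gene (IRF3-2D over Ctrl, TMM scaling) with its standard error, n = 3 libraries per group. Filled points passed an adjusted p of 0.05 (edgeR) and open points did not. The 11 mitochondrial genes lie between -1.24 and -0.20 and the 15 peroxisomal genes between -4.68 and -0.07.

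The size of these values depended on how libraries were scaled. TMM factors were 1.12 to 1.23 in IRF3-2D and 0.822 to 0.879 in Ctrl. With library totals alone the median of all genes moved up by 0.45 on the log2 scale, 5.29% of all genes were called lower and 41.7% higher, and 11 of the 31 listed genes were called lower and 1, Pex11a, higher. The 11 were Cpt1a, Acadl, Hadh, Bdh1, Crot, Decr2, Acaa1b, Scp2, Nudt7, Eci2 and Vnn1, and each of these kept its call under all 14 alternatives. Hadha, Etfa, Acox2, Acox3 and Nudt19 lost theirs with library totals alone, where Hadha and Etfa stood at 0.03 and 0.07. Relative to the median of all genes, 30 of the 31 were lower under either scaling, the exception being Acad11. Dropping the TMM factors moves all genes by nearly the same amount, so the second count was bound to repeat the first. With TMM scaling the same 30 lay below 0, as did 47.6% of all tested genes.

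**Figure D2:**
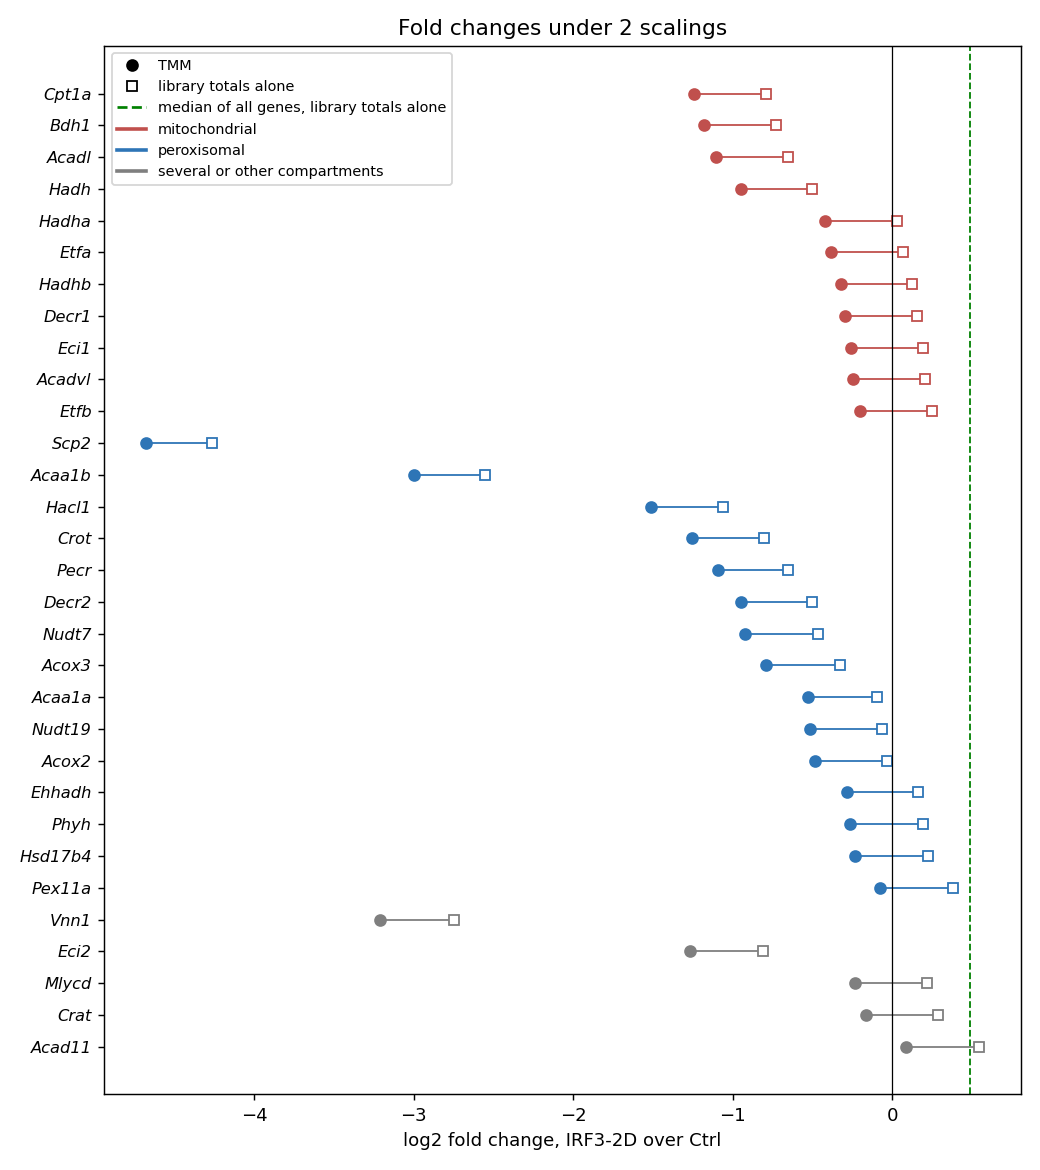
Log2 fold change of each tested gene (IRF3-2D over Ctrl) with TMM scaling (filled circles) and with library totals alone (open squares), coloured by compartment. The dashed line is the median of all tested genes with library totals alone, 0.49; 14 of the 31 genes lie above 0 with library totals alone, and 30 of the 31 lie left of the dashed line.

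Entry of fatty acids into mitochondria was represented by Cpt1a, which encodes the enzyme that joins long-chain acyl groups to carnitine and sets the pace of mitochondrial oxidation. Cpt1a (ENSMUSG00000024900, chromosome 19, 3322334 to 3385733, plus strand, GENCODE M21 on GRCm38) had 3454, 3279 and 4314 counts in IRF3-2D and 6373, 6997 and 7866 in Ctrl. The groups did not overlap. Its level was 243 ± 34.6 CPM in IRF3-2D and 575 ± 48.6 in Ctrl (SD, n = 3 each), a fall of 2.37-fold (log2 fold change -1.24, SE 0.13, adjusted p = 0.00071). Cpt2, whose product moves the acyl group back to CoA inside the mitochondrion, was listed at 2, 4 and 12 counts in IRF3-2D and 7, 16 and 8 in Ctrl, too few to test. Mlycd and Crat, grouped here with the carnitine shuttle, encode proteins that are not confined to mitochondria. Mlycd, which removes malonyl-CoA, the inhibitor of the CPT1 enzyme, stood at 67.05 ± 6.10 CPM in IRF3-2D and 78.8 ± 2.24 in Ctrl and was not called (log2 fold change -0.23, adjusted p = 0.095). Crat, a carnitine acyltransferase for short chains, stood at 12.02 ± 2.34 CPM in IRF3-2D and 13.5 ± 3.15 in Ctrl (adjusted p = 0.64), and both genes had positive values with library totals alone.

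The first dehydrogenation in mitochondria is made by a set of enzymes that differ in the chain length they accept, and these did not move by the same amount. Acadl, the long-chain enzyme (ENSMUSG00000026003, chromosome 1, 66830839 to 66863277, minus strand), had 1414, 1449 and 1675 counts in IRF3-2D and 2610, 2371 and 2949 in Ctrl. All IRF3-2D libraries were below all Ctrl libraries. The level was 99.8 ± 9.27 CPM in IRF3-2D and 214 ± 15.6 in Ctrl (SD, n = 3 each), a fall of 2.15-fold (log2 fold change -1.10, SE 0.10, adjusted p = 0.00051). Acadvl, the very-long-chain enzyme, stood at 414 ± 21.4 CPM in IRF3-2D and 491 ± 34.0 in Ctrl; its groups did not overlap, but it was not called (log2 fold change -0.25, adjusted p = 0.086), except with DESeq2. Acadm, the medium-chain enzyme, was listed at 0, 5 and 0 counts in IRF3-2D and 2, 0 and 0 in Ctrl. Acad11, a member of the acyl-CoA dehydrogenase family, had the only positive log2 fold change of the 31 (0.08, SE 0.26, adjusted p = 0.84), with 10.7 ± 3.34 CPM in IRF3-2D and 10.06 ± 1.79 in Ctrl.

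Of the later steps of the mitochondrial cycle, Hadh and Hadha were called lower, Hadhb was not called and Acaa2 was not tested. Hadh, the dehydrogenase for short and medium 3-hydroxyacyl chains, fell 1.93-fold, with 177 ± 24.3 CPM in IRF3-2D and 341.5 ± 38.01 in Ctrl (SD, n = 3 each; adjusted p = 0.0026). Hadha and Hadhb encode the alpha and beta subunits of the trifunctional protein, which carries out the last 3 steps on long chains. They lie head to head on chromosome 5 and in GENCODE M21 are separated by 85 bases (chr5:30155163-30155247, GRCm38), shown because this stretch lies between both starts. Read on the plus strand it has 69.4% G and C. The RefSeq starts of the pair lie further apart.
Hadha and Hadhb gap: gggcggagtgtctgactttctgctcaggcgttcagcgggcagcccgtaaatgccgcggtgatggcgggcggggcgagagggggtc
Hadha had 166 ± 7.03 CPM in IRF3-2D and 223 ± 9.31 in Ctrl, with no overlap, and fell 1.34-fold with TMM scaling (adjusted p = 0.0090), while its log2 fold change was 0.03 with library totals alone. Hadhb had 92.4 ± 17.1 CPM in IRF3-2D and 115.6 ± 14.2 in Ctrl, overlapped between groups and was not called (log2 fold change -0.32, SE 0.15, adjusted p = 0.17), though it was without IRF3-2D replicate 3 (-0.49, adjusted p = 0.044). The log2 fold changes of the pair, -0.42 and -0.32, differed by less than the standard error of Hadhb; 23.3% of the 31-base words of Hadhb also occur in transcripts of other genes, mainly Gm13910. Acaa2, the mitochondrial thiolase, was listed at 1, 0 and 3 counts in IRF3-2D and 1, 0 and 0 in Ctrl.

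Auxiliary enzymes that prepare unsaturated chains for the cycle were divided. Eci2, an enoyl-CoA isomerase found in mitochondria and peroxisomes (ENSMUSG00000021417, chromosome 13, 34977748 to 35027096, minus strand), had 753, 788 and 858 counts in IRF3-2D and 1048, 1789 and 1858 in Ctrl. The groups did not overlap, and Ctrl replicate 1 lay well below the other two Ctrl libraries. Eci2 averaged 52.8 ± 3.80 CPM in IRF3-2D and 127 ± 36.03 in Ctrl, a fall of 2.41-fold (log2 fold change -1.27, SE 0.21, adjusted p = 0.0052), while 13.6% of its 31-base words are found in other genes, mainly Eci3. The mitochondrial isomerase Eci1 (83.6 ± 9.55 CPM in IRF3-2D and 99.9 ± 15.2 in Ctrl, adjusted p = 0.21) and the mitochondrial dienoyl-CoA reductase Decr1 (159 ± 13.7 CPM in IRF3-2D and 195 ± 24.6 in Ctrl, adjusted p = 0.11) overlapped between groups and were not called. Electrons from the dehydrogenases pass through the flavoprotein ETF, whose subunits are encoded by Etfa and Etfb, to the oxidoreductase encoded by Etfdh. Etfa, whose promoter window with the direct repeat is shown above, had 393 ± 35.6 CPM in IRF3-2D and 512 ± 19.4 in Ctrl. It was called lower with TMM scaling (1.30-fold, adjusted p = 0.025), but not with library totals alone (0.07 on the log2 scale) or when IRF3-2D replicate 1 or 2, or Ctrl replicate 1 or 3, was left out. Etfb was not called (257 ± 26.7 CPM in IRF3-2D and 295 ± 17.9 in Ctrl, adjusted p = 0.20; 49.9% of its words occur in other genes, mainly Gm45233), and Etfdh was listed at 7, 0 and 26 counts in IRF3-2D and 0, 7 and 0 in Ctrl. In all, 6 of 11 tested mitochondrial genes were called lower, 4 with library totals alone, and their median stood at -0.38 on the log2 scale (0.07 with library totals alone). The shares of all tested genes called lower were 13.1% with TMM scaling and 5.29% with library totals alone. Medians of all tested genes under these scalings were 0.03 and 0.49.

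Ketone bodies are made from acetyl-CoA in liver mitochondria, and Bdh1 encodes the dehydrogenase that turns acetoacetate into 3-hydroxybutyrate. Bdh1 (ENSMUSG00000046598, chromosome 16, 31422280 to 31458901, plus strand) had 1788, 1559 and 2106 counts in IRF3-2D and 3262, 3315 and 3439 in Ctrl. The Ctrl libraries lay close together and all IRF3-2D libraries were below them. Its level was 119.8 ± 16.6 CPM in IRF3-2D and 271 ± 6.58 in Ctrl (SD, n = 3 each), a fall of 2.27-fold (log2 fold change -1.18, SE 0.11, adjusted p = 0.00058). Acat1, a mitochondrial thiolase that joins acetyl-CoA units, was named after its values were seen. It was called 1.42-fold lower (392 ± 52.5 CPM in IRF3-2D and 558 ± 30.4 in Ctrl, adjusted p = 0.017), and the call was lost with library totals alone and without IRF3-2D replicate 1 or 2 or Ctrl replicate 2 or 3.

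**Figure D3:**
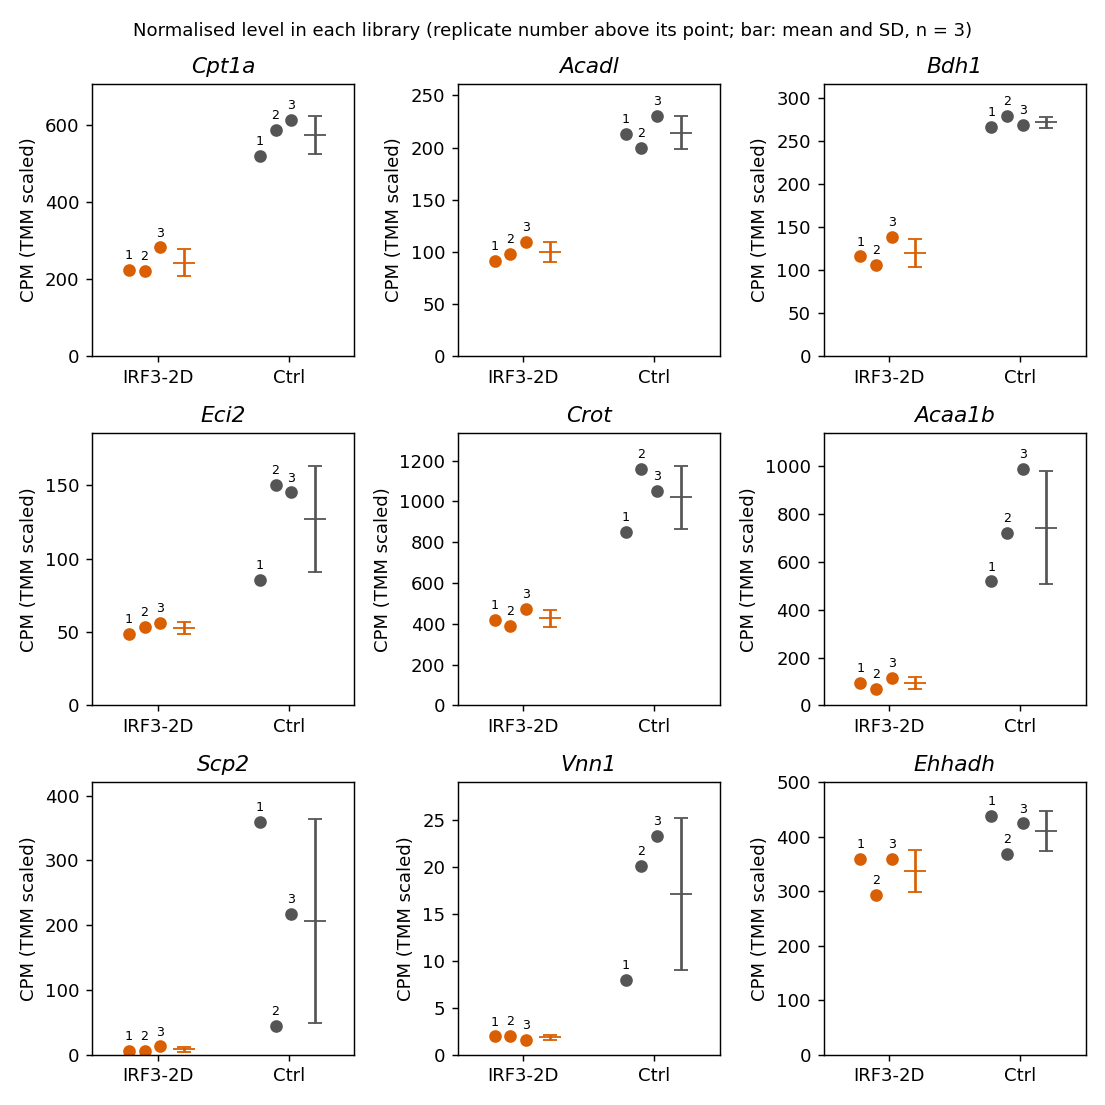
Normalised level (CPM with TMM) of 9 genes in each library, IRF3-2D on the left and Ctrl on the right of each panel; numbers are replicates, and bars are the mean and SD (n = 3). In 8 of the panels the gene fell at least 2-fold and in the ninth, Ehhadh, the log2 fold change was -0.28; Ctrl libraries of Scp2, Acaa1b, Vnn1 and Eci2 are spread widely.

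The peroxisomal cycle held the deepest fall of the 31 genes, in Scp2, and also steps that were not called. Its thiolase is encoded in the mouse by the neighbouring genes Acaa1a and Acaa1b, on chromosome 9 with 182582 bases between them. Acaa1b (ENSMUSG00000010651, 119148023 to 119157093, minus strand) had 1464, 1002 and 1773 counts in IRF3-2D and 6343, 8580 and 12664 in Ctrl. Every IRF3-2D library was below every Ctrl library by a wide margin. The level was 92.9 ± 24.2 CPM in IRF3-2D and 743 ± 237 in Ctrl (SD, n = 3 each), a fall of 7.996-fold (log2 fold change -3.00, SE 0.29, adjusted p = 0.00060). Acaa1a was listed at 21, 11 and 15 counts in IRF3-2D and 33, 7 and 15 in Ctrl and was not called (adjusted p = 0.57).

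How the reads fell between this pair is uncertain, because 40.0% of the words of Acaa1b and 18.1% of those of Acaa1a occur in other genes, in each case most often in its partner. Their coding sequences, 1272 bases each in GENCODE M21, are 96.5% identical with 44 differences, and the longest identical run is 327 bases. The stretch with the most differences in 60 bases, 259 to 318 counted from the first base of the start codon, is shown with the 11 differing bases in capitals, to show where reads could tell the copies apart.
Acaa1a: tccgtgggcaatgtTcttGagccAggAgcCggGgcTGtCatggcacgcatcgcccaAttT
Acaa1b: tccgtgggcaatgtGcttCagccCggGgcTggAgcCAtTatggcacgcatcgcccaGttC

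Scp2 encodes a second peroxisomal thiolase, for branched chains, and a sterol carrier protein from another start. Scp2 (ENSMUSG00000028603, chromosome 4, 108043839 to 108144998, minus strand) had 98, 77 and 193 counts in IRF3-2D and 4392, 522 and 2783 in Ctrl. The groups did not overlap, but the Ctrl libraries themselves spanned 43.9 to 359 CPM, and Ctrl replicate 2 was far below the other two. The level was 8.07 ± 4.01 CPM in IRF3-2D and 207 ± 158 in Ctrl, a fall of 25.6-fold (log2 fold change -4.68, SE 0.79, adjusted p = 0.0057), with log2 values of -4.02 without Ctrl replicate 1 and -5.16 without Ctrl replicate 2. The gene has 9 annotated transcripts, and 33.4% of its words occur in other genes, mainly the pseudogene Scp2-ps2.

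Earlier steps of the peroxisomal cycle were lower by little or not called. Ehhadh, the bifunctional enzyme for straight chains, has 1 annotated transcript (ENSMUSG00000022853, chromosome 16, 21761287 to 21787807, minus strand) and had 5561, 4327 and 5473 counts in IRF3-2D and 5360, 4385 and 5430 in Ctrl. Raw counts were alike, and after TMM scaling every IRF3-2D library lay below every Ctrl library. Its level was 337 ± 38.2 CPM in IRF3-2D and 410.4 ± 36.6 in Ctrl, which was not called (log2 fold change -0.28, SE 0.12, adjusted p = 0.12; 0.16 with library totals alone). Hsd17b4, the bifunctional enzyme that also handles branched chains and bile acid precursors, stood at 533 ± 37.96 CPM in IRF3-2D and 626 ± 72.8 in Ctrl and was not called (adjusted p = 0.18). The branched-chain oxidase gene Acox2 was called 1.39-fold lower (174 ± 5.39 CPM in IRF3-2D and 243 ± 23.4 in Ctrl, adjusted p = 0.011), a call that did not hold with library totals alone (-0.03 on the log2 scale) or when IRF3-2D replicate 2 was left out. Acox3, a related oxidase gene at 3.94 ± 0.402 CPM in IRF3-2D and 6.82 ± 1.02 in Ctrl, passed narrowly (1.73-fold lower, adjusted p = 0.044) and lost its call without any single library, with library totals alone, without the count filter and with the replicate block (adjusted p up to 0.30).

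Genes for the export of shortened chains and for handling double bonds in peroxisomes were divided into 2 called and 1 not called. Crot encodes the carnitine octanoyltransferase that lets medium chains leave the peroxisome. Crot (ENSMUSG00000003623, chromosome 5, 8966033 to 8997324, minus strand) had 6476, 5727 and 7213 counts in IRF3-2D and 10408, 13755 and 13427 in Ctrl. No library of one group reached the range of the other. The level was 426.5 ± 42.9 CPM in IRF3-2D and 1019 ± 156 in Ctrl (SD, n = 3 each), a fall of 2.39-fold (log2 fold change -1.26, SE 0.14, adjusted p = 0.00097). Decr2, the peroxisomal dienoyl-CoA reductase, fell 1.93-fold, with 137 ± 19.8 CPM in IRF3-2D and 264.5 ± 40.2 in Ctrl (adjusted p = 0.0041). Pecr, a reductase of trans-2-enoyl-CoA, was not called at 7.59 ± 3.06 CPM in IRF3-2D and 16.2 ± 5.54 in Ctrl (log2 fold change -1.09, SE 0.37, adjusted p = 0.068). The call of Pecr was made without IRF3-2D replicate 3, without Ctrl replicate 2 and with DESeq2.

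Peroxisomal alpha-oxidation, which removes single carbons from branched chains such as phytanic acid, had no called gene of its pair. Phyh, the hydroxylase of the first step, stood at 1719 ± 167 CPM in IRF3-2D and 2062 ± 160.2 in Ctrl (log2 fold change -0.26, SE 0.10, adjusted p = 0.11). Hacl1, the lyase that follows, stood at 2.65, 2.44 and 2.42 CPM in IRF3-2D and 2.45, 5.72 and 13.3 in Ctrl, with overlap (adjusted p = 0.096). The log2 fold change of Hacl1 was -1.51 with all libraries, -0.70 without Ctrl replicate 3 and -1.92 without Ctrl replicate 1, where it was called, as it was with DESeq2. Of its words, 31.2% occur in Gm49387 and other genes. Pex11a, which promotes division of peroxisomes and is a known PPARalpha target, had 82.9 ± 4.54 CPM in IRF3-2D and 87.3 ± 5.30 in Ctrl (log2 fold change -0.07, SE 0.08, adjusted p = 0.56; 0.38 and called higher with library totals alone). In all, 8 of 15 peroxisomal genes were called lower, 5 without IRF3-2D replicate 2 and 5 with library totals alone. Beside these, 13.1% of all tested genes were called lower with all libraries and TMM scaling. Without IRF3-2D replicate 2 it was 920 of 11074 genes, and with library totals alone 5.29%. The median of the 15 peroxisomal genes was -0.79 on the log2 scale (-0.33 with library totals alone). Whether peroxisomal and mitochondrial genes differed from each other was not tested.

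The 3 genes of coenzyme A turnover were all called lower with TMM scaling, Nudt19 less stably than the others. Vnn1 encodes a pantetheinase of the cell surface that recycles the vitamin part of coenzyme A. Vnn1 (ENSMUSG00000037440, chromosome 10, 23894688 to 23905343, plus strand) had 30, 30 and 24 counts in IRF3-2D and 98, 239 and 299 in Ctrl. The IRF3-2D libraries were alike and all below Ctrl, where replicate 1 was the lowest. The level was 1.85 ± 0.243 CPM in IRF3-2D and 17.2 ± 8.09 in Ctrl, a fall of 9.25-fold (log2 fold change -3.21, SE 0.42, adjusted p = 0.0021), and none of its words occur in other genes. Nudt7 and Nudt19 encode peroxisomal hydrolases of coenzyme A and acyl-CoA. Nudt7 fell 1.90-fold, with 152 ± 7.42 CPM in IRF3-2D and 288 ± 58.2 in Ctrl (adjusted p = 0.0044). Nudt19 was called 1.43-fold lower, with 41.3 ± 4.52 CPM in IRF3-2D and 59.1 ± 4.74 in Ctrl (adjusted p = 0.013), and that call was lost with library totals alone (-0.07 on the log2 scale) or when IRF3-2D replicate 1 or 2 was left out.

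Libraries of the same group were not equal in these genes. In IRF3-2D, replicate 2 had the lowest level for 21 of the 31 tested genes and replicate 3 the highest for 23. In Ctrl, replicate 1 had the lowest level for 20 and replicate 3 the highest for 14. The summed level of the 31 was 5967, 5572 and 6666 CPM in IRF3-2D and 8875, 9721 and 10270 CPM in Ctrl. With TMM scaling these sums did not overlap, and the spread within a group was smaller than the gap between the groups. The TMM factors were 1.12 to 1.23 in IRF3-2D and 0.822 to 0.879 in Ctrl. Without these factors the sums still do not overlap, but the gap is smaller than the spread within either group. The median coefficient of variation was 10.2% in IRF3-2D and 15.2% in Ctrl for the 15 peroxisomal genes, 11 of which varied more in Ctrl. For the 11 mitochondrial genes it was 10.4% in IRF3-2D and 7.26% in Ctrl, and 3 varied more in Ctrl. Over all tested genes it was 13.2% in IRF3-2D and 15.7% in Ctrl.

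**Figure D4:**
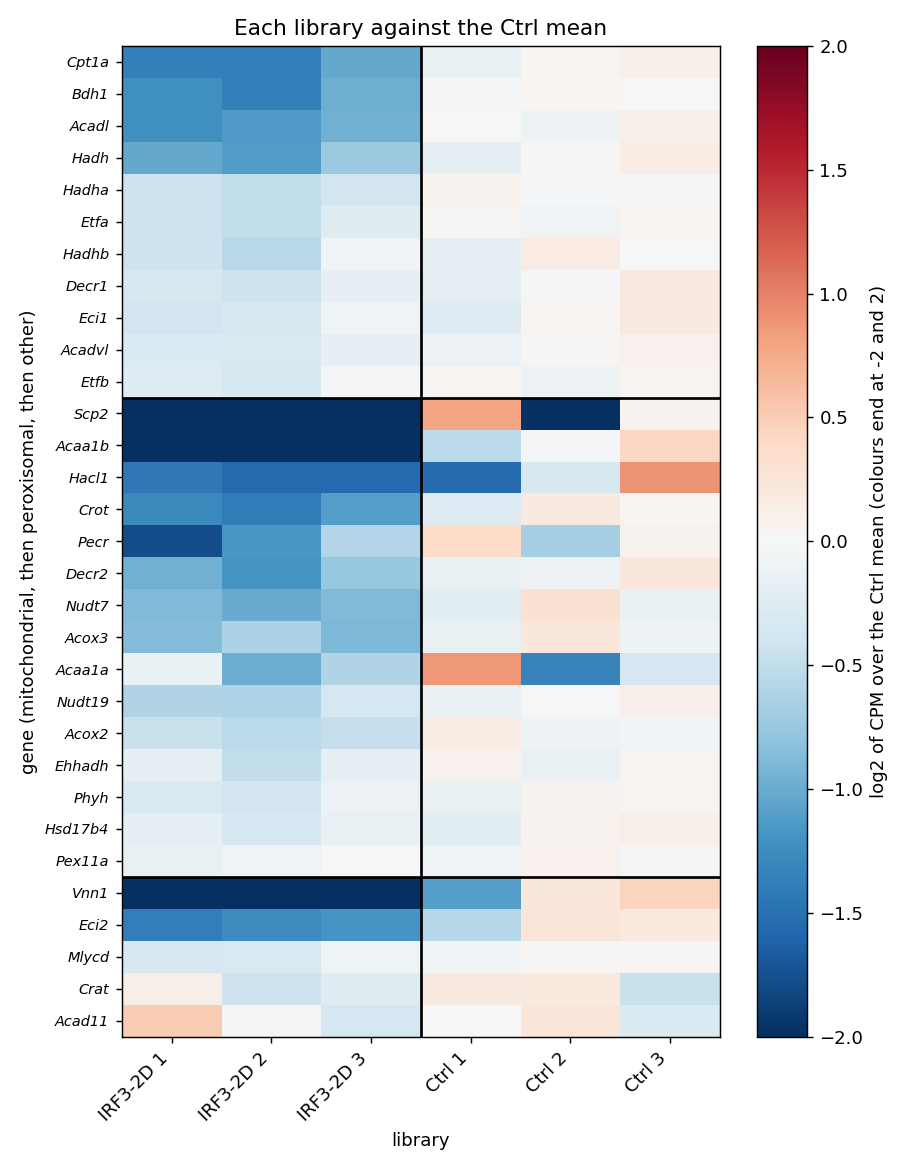
Log2 of the level (CPM with TMM) over the Ctrl mean for each of the 31 tested genes (rows) in the 3 IRF3-2D and 3 Ctrl libraries (columns); lines divide mitochondrial, peroxisomal and other genes. Scp2, Acaa1b and Vnn1 are at or beyond the end of the colour scale in all IRF3-2D libraries, and Ctrl replicate 2 is low for Scp2, as Ctrl replicate 1 is for Vnn1, Hacl1 and Eci2.

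Other genes of the pathway outside the 37 showed a like count. Of 34 tested enzymes and transporters, 17 were called lower and 1, Abcd4, higher (8 and 3 with library totals alone), beside 13.1% and 13.2% of all genes. Abcd4, a member of the ABC transporter family named after its values were seen, was called 1.93-fold higher (21.2 ± 3.80 CPM in IRF3-2D and 10.99 ± 3.01 in Ctrl, adjusted p = 0.025), a call lost without IRF3-2D replicate 1 or 3 or Ctrl replicate 3. Acsm3, a medium-chain acyl-CoA synthetase, fell 2.79-fold (63.5 ± 8.55 CPM in IRF3-2D and 177 ± 8.86 in Ctrl, adjusted p = 0.00023), and Acot4, a peroxisomal acyl-CoA thioesterase, fell 4.62-fold (adjusted p = 0.00038). Echdc3, a protein of the enoyl-CoA hydratase family, was called 1.39-fold lower (adjusted p = 0.0044), but not with library totals alone. Of 16 peroxisome biogenesis and matrix genes, 4 were called lower and none higher, beside 13.1% and 13.2% of all genes, and 1 lower and 6 higher with library totals alone. Cat, the catalase that removes hydrogen peroxide, fell 1.73-fold (2353 ± 380.3 CPM in IRF3-2D and 4075 ± 165 in Ctrl, adjusted p = 0.0042). The import genes Pex7, Pex13 and Pex26 were called 1.43-fold, 1.30-fold and 1.33-fold lower with TMM scaling, and none of these 3 was called with library totals alone, where Pex13 and Pex26 stood above 0. Without IRF3-2D replicate 1 or 2 the biogenesis count was 1 or 2.

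Of 14 tested regulators of the pathway, 6 were called lower and 2 higher (3 and 4 with library totals alone), beside 13.1% lower and 13.2% higher over all genes, so the count of higher calls is near the background. Ppara, the receptor that drives many of these genes, had 744, 736 and 878 counts in IRF3-2D and 1603, 1552 and 1863 in Ctrl, and fell 2.62-fold (51.8 ± 5.01 CPM in IRF3-2D and 136 ± 8.58 in Ctrl, adjusted p = 0.00017). Rxra, which encodes its dimer partner, had low counts, 11, 19 and 29 in IRF3-2D and 102, 162 and 88 in Ctrl. Rxra fell 7.35-fold (1.30 ± 0.595 CPM in IRF3-2D and 9.61 ± 3.55 in Ctrl, adjusted p = 0.0037). Whether these counts cover all its transcripts was not tested. Lpin1, a phosphatidate phosphatase that also acts as a coactivator in liver, fell 2.22-fold (617.5 ± 109 CPM in IRF3-2D and 1372 ± 70.5 in Ctrl, adjusted p = 0.0014). Ppargc1a, the coactivator PGC-1alpha that raises mitochondrial oxidation genes, rose 2.22-fold, with 1533, 1438 and 1385 counts in IRF3-2D and 573, 415 and 611 in Ctrl (95.8 ± 4.42 CPM in IRF3-2D and 43.2 ± 7.16 in Ctrl, adjusted p = 0.0010). Rxrb, a further RXR gene named after its values were seen, was called 1.33-fold higher (24.2 ± 2.05 CPM in IRF3-2D and 18.2 ± 1.83 in Ctrl, adjusted p = 0.047), and not when any single library was left out. Ppara, Rxra, Lpin1 and Ppargc1a kept their calls under all 14 alternatives, and the groups did not overlap for any of them.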

How the data were processed

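RNA of 6 mouse liver samples was sequenced from poly-A selected, strand-specific libraries, per the labels' protocols. The authors deposited a table of estimated counts, with a column for each library and no scaling. Per the submitters' processing notes the tool was Salmon 1.2.1, with builds listed as GRCm38 and mm10; which annotation, strand setting and filters they used is not stated. All values were whole numbers and were used as rounded estimates. Acadm, Acaa2, Cpt2 and Etfdh were listed near 0 in all libraries; whether counts cover all transcripts of a gene was not tested. Of 20894 identifiers, 20817 matched a symbol in GENCODE M21 (GRCm38).

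Groups came from sample titles. Replicates are numbered without saying that each is a separate mouse, so p-values reflect variation among these samples alone, part of which may be technical. The default filterByExpr filter left 10802 genes (edgeR 4.0.16, R 4.3.3). IRF3-2D was compared with Ctrl by the quasi-likelihood F-test with TMM, p-values were adjusted by Benjamini-Hochberg over all genes, and the threshold was 0.05. All 31 tested members passed the filter through libraries of both groups. Alternatives were DESeq2 1.42.0, limma-voom (limma 3.58.1), other scalings and filters, a replicate block and leaving out each library. The edgeR, limma-voom, DESeq2 and replicate-block fits were tested on simulated counts with as many raised as lowered genes. Library totals alone was not among the fits simulated, so the simulation does not bear on the choice of scaling. The floor of 3 counts equals 0.194 to 0.252 CPM, depending on the library, and covers counting error alone. No library pair of a group agreed within sampling noise (chi-square per degree of freedom 18.9 to 110). Shared sequence was measured as 31-base words of GENCODE M21 transcripts; antisense or overlapping genes cannot be told apart without the strand setting.

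The members and lists were chosen with earlier results of these data known. Every tested member is named; counts per library are given for members called with no overlap and at least a 2-fold change, and for Cpt1a, Ehhadh and Bdh1, and from each further list the 4 called genes with the smallest adjusted p are named. Genes named outside this rule are said to be so, and some genes that the rule names are not reported here.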

Additional observations from a re-analysis of the deposited data

How the results depend on the processing

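Of the 16 calls, 11 held under all 14 alternatives, and with DESeq2, limma-voom, RLE, upper-quartile scaling or a mean count of at least 50 all 16 held. Leaving out 1 library gave 12 to 18 listed genes called lower and 0 higher (median log2 fold change -0.59 to -0.46): 5 to 7 mitochondrial (-0.47 to -0.35), 5 to 8 peroxisomal (-0.85 to -0.70), 2 to 3 of the others (-0.35 to -0.20); 12 to 19 lower and 0 to 1 higher among other enzymes, 1 to 4 lower in biogenesis, 4 to 5 lower and 1 higher among regulators. Over all genes this gave 920 to 1363 lower and 851 to 1312 higher, against 1418 and 1426 with all libraries and 571 and 4500 with library totals alone. With library totals alone the listed genes' median was -0.066 with 1 called higher, the mitochondrial median 0.068, the peroxisomal median -0.33 with 5 lower and 1 higher, and the median of the other 5 genes 0.22; other enzymes gave 8 lower and 3 higher, biogenesis 1 and 6, regulators 3 and 4. Log2 fold changes then turned positive for Acadvl (0.21), Hadha (0.029), Hadhb (0.13), Eci1 (0.20), Decr1 (0.16), Etfa (0.068), Etfb (0.25), Ehhadh (0.16), Hsd17b4 (0.22), Phyh (0.19), Pex11a (0.38), Crat (0.29), Mlycd (0.22), Pex13 (0.082) and Pex26 (0.047), since dropping the TMM factors moves every gene up. Acaa1a ranged from -0.91 without Ctrl replicate 2 to 0.22 without Ctrl replicate 1, and Acad11 was -0.20 without IRF3-2D replicate 1 and -0.04 without Ctrl replicate 3; the cause was not tested. Counting Crat, Eci2, Acad11 and Mlycd as peroxisomal gave a median of -0.53. Regulators called higher numbered 1 with DESeq2, limma-voom, RLE, upper-quartile scaling, no count filter and the replicate block. Same-numbered libraries did not clearly deviate together (correlations 0.096, -0.034 and 0.045), though such values cannot exclude a weak pairing of the samples. With the replicate block 15 of the 16 calls remained and no enzyme outside the list was called higher (0). All genes then gave 1128 lower and 1038 higher. Cpt2, Acadm, Acaa2 and Etfdh had too few counts to be tested; the cause was not tested.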
